A study of Homo sapiens with 42 samples.

Results

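The ribosome biogenesis factors described here are 45 named genes whose proteins build ribosomes in the nucleolus. They were chosen by name, and each was read from the probe set of highest mean among those that carry that gene symbol alone. Of the 45, 40 were measured in this way, among 18417 genes in all. NOP56 and PPAN have only probe sets that are shared with another gene, and GNL3, DDX18 and EBNA1BP2 were not matched to a probe set. The 40 measured genes were all among the top 40% of genes by mean level (7367 genes), the set in which a gene could be called changed.

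The study asked how loss or inhibition of EZH2, the methyltransferase that places a repressive mark on histone H3, alters the response of HL-60 cells to all-trans-retinoic acid (ATRA). HL-60 is an established human acute myeloid leukemia line with an amplified MYC gene, and ATRA is a retinoic acid receptor ligand that drives such cells towards granulocytes. RNA was hybridised to 42 Affymetrix Human Gene 1.0 ST arrays in 14 groups of 3. In the inhibitor experiment (18 arrays), groups received 0.1 µM ATRA alone, 10 µM GSK343 (a cofactor-competitive EZH2 inhibitor) with or without ATRA, or 2.5 µM HKMTI-1-005 (a substrate-competitive inhibitor of EZH2 and of the methyltransferases EHMT1 and EHMT2) with or without ATRA, and were set against untreated cells after 3 days. In the knockdown experiment (24 arrays), cells carried lentiviral shEZH2#1 or shEZH2#2 (puromycin-selected, with no cloning step described), a non-targeting hairpin (Scr), or no vector (labelled WT and taken as untransduced), each with and without ATRA. No label names a solvent for the untreated cells. The arrays of a group are described as biological triplicates. Nothing further says how separate the cultures were, so p-values measure the spread between these arrays, after a correction for batch and date that the authors applied.

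Ribosome production starts when RNA polymerase I copies the rRNA genes in the nucleolus. The long transcript is modified by small nucleolar ribonucleoproteins (snoRNPs), cut free by a large assembly called the small subunit processome, and matured along separate routes into the small and large subunits. Rapidly dividing myeloid precursors run this pathway at a high rate, MYC is a well-known activator of its genes, and granulocytic maturation is known for lowering it. The motif CACGTG, the E-box that MYC and its partner MAX bind, is therefore of interest in the promoters of these genes.

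Promoter windows of 300 bases (250 before to 50 after the transcription start, RefSeq, GRCh38.p14) were matched for 38 of the 45 genes. CACGTG, which reads the same on both strands and overlaps no other motif searched, lay in a window of 18 of the 38 (47.4%), against 8.77% of 27305 genes and 13.8% of 6115 genes in the top 40%. Its first base lay between -70 and +50 of the start in 17 of the 19 occurrences. Shown are the 3 windows, written 5′ to 3′ with CACGTG in capitals, of those among the 10 factors that moved most with ATRA and that hold the motif: RRP9 on the minus strand at chr3:51941855-51942154, LYAR on the minus strand at chr4:4289972-4290271 and BYSL on the plus strand at chr6:41921249-41921548. The motif begins at -5 in RRP9, at -64 in LYAR and at +29 in BYSL.
RRP9: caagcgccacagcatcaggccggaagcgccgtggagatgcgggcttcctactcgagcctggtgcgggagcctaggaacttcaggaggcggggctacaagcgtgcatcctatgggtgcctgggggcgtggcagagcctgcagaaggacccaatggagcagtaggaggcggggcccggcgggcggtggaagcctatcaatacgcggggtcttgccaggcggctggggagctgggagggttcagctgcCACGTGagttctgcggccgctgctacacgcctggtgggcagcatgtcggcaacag
LYAR: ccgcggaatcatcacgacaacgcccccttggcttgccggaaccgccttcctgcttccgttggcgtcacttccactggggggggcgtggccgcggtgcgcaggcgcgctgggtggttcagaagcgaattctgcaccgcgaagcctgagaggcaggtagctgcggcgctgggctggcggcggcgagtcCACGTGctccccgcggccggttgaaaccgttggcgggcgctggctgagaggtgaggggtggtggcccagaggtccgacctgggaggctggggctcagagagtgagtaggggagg
BYSL: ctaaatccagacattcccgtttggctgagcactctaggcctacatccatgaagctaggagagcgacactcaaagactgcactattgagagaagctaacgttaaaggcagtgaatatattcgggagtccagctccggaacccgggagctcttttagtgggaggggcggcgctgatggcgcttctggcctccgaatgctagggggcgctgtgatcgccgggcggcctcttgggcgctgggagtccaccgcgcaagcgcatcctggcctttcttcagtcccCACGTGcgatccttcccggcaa
Among the factors called lower with ATRA alone, 6 of 15 with a matched window held the motif (40%), against 10 of 19 of the other measured factors (52.6%). A match describes these letters only.

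Values below are log2 levels, and a difference of 1 is a change of 2-fold. A gene was called when limma's adjusted p (Benjamini-Hochberg, over 18417 genes) was 0.05 or less, the fold was at least 1.3 and the gene was in the top 40%. A plain unpaired test per gene was run beside it with the same thresholds. It takes the spread from the compared groups alone, and shares it neither with the other groups nor between genes. It called none of the factors in any comparison of groups. The study names that test for its experiments in general and not for the arrays. Of 6 HL-60 myeloid markers, 5 were measured and all were in the top 40% by mean over all arrays. No T cell, B cell, erythroid, megakaryocyte or epithelial marker was. Single arrays could differ from this. The lowest mean in the top 40% was 6.88, while the myeloid marker AZU1 was 5.82 to 6.35 in WT cells and the epithelial marker KRT18 reached 7.51 in Scr cells. EZH2 was lower with the hairpins than with Scr (log2 fold change -1.08, adjusted p = 1.72e-05). Its mean was 9.28 in shEZH2#1 and 9.29 in shEZH2#2 cells, against 10.36 in Scr and 10.02 in WT cells, so the distance to WT was smaller. Array medians over all probe sets ranged from 5.36 to 5.46 in the inhibitor experiment. In the knockdown experiment, the 6 arrays of highest median were marked, with medians of 5.47 to 5.56, against 5.31 to 5.44 on the other 18. Their small nucleolar RNA levels were 7.83 to 8.09, against 7.23 to 7.65 on the other 18. The inhibitor arrays, at 7.10 to 7.92, reached into the range of the 6. The 6 are Scr replicates 1 and 2, Scr+ATRA replicate 3, WT+ATRA replicate 3, shEZH2#1 replicate 1 and shEZH2#2 replicate 2. For some comparisons that rest on them, the result without them is also given. Most other values are given with them only. With arrays left out, calls were counted for the factors only and not over all genes.

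With ATRA alone, the ribosome biogenesis factors were lower as a set. All 40 had a log2 fold change below 0, with a median of -0.54, against -0.05 over all 7367 genes, and 17 fell in the limma test while none rose. The plain unpaired test called none of the 17, and 8 of all genes. In limma 7.85% of all genes were called lower and 5.23% higher. The calls were 4 of 7 factors of rRNA transcription, 1 of 4 of the snoRNP core, 6 of 16 of the small subunit route and 6 of 13 of the large subunit route. The snoRNP core call, DKC1, was lost without ATRA replicate 1 (limma adjusted p = 0.0540). On 28 of the 40 genes all 3 ATRA arrays lay below all 3 untreated arrays, against 24.9% of all genes, and 29 were lower at an unadjusted p under 0.05, against 18.8%. The count of calls was 6 without ATRA replicate 1 and 11 without untreated replicate 1. WDR12, NOLC1, WDR43, NOB1, HEATR1 and MRTO4 kept their calls with any of the 6 arrays omitted. In RNA from whole cultures, fewer cells of a type and less of an RNA per cell cannot be told apart.

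The mean over the 40 factors was 8.97, 9.27 and 9.46 on the ATRA arrays and 9.88, 9.87 and 9.58 on the untreated arrays. The groups did not overlap, but their distance depended on the array. Replicate 3 was the highest of the ATRA arrays and the lowest of the untreated arrays. In GSK343+ATRA cells the mean was 9.07, 9.12 and 9.65, against 9.84, 10.03 and 9.68 in GSK343 cells, where replicate 3 again was the highest with ATRA and the lowest without. In HKMTI-1-005+ATRA cells it was 9.73, 9.56 and 9.50, against 9.76, 10.01 and 9.68 in HKMTI-1-005 cells, and 1 ATRA array lay above the lowest array without ATRA. Which arrays shared a batch or date is not stated, and the part of batches in this spread was not tested.

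**Figure D1:**
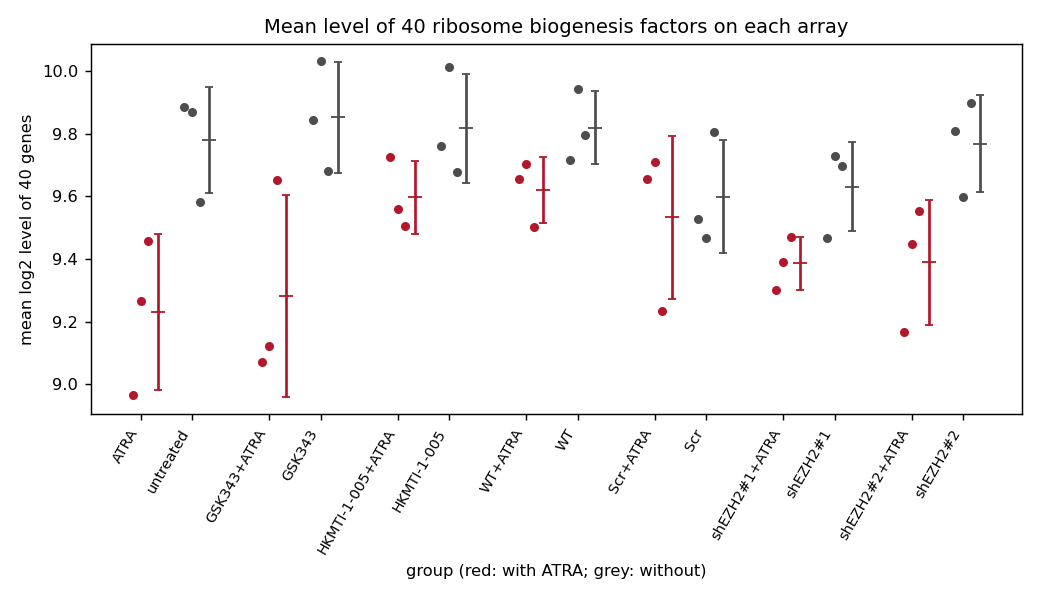
Mean log2 level of the 40 measured ribosome biogenesis factors on each array (vertical axis) by group (horizontal axis), with ATRA groups in red left of their groups without ATRA in grey. Points are arrays in the order of their replicate numbers, and bars show mean ± SD (n = 3). The ATRA group of the inhibitor experiment averaged 9.23 and untreated cells 9.78, GSK343+ATRA cells averaged 9.28 and GSK343 cells 9.85, while Scr+ATRA (9.53) and Scr (9.60) overlap.

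Of the rRNA transcription factors, POLR1B moved most. It encodes a core subunit of RNA polymerase I. Its level was 7.95, 8.39 and 8.85 on the ATRA arrays, against 9.78, 9.81 and 9.16 on the untreated arrays (log2 fold change -1.18, SE 0.28, adjusted p = 0.00606), a 2.27-fold fall without overlap. In GSK343 cells it was 8.05, 8.23 and 9.09 with ATRA and 9.53, 10.13 and 9.24 without (log2 fold change -1.17, SE 0.28, adjusted p = 0.00768), and in HKMTI-1-005 cells 9.03, 9.23 and 9.04 with ATRA and 9.50, 9.92 and 9.40 without (log2 fold change -0.50, SE 0.28, adjusted p = 0.537). The arrays with and without ATRA were apart in all 3, but only the first 2 differences passed the test. In the knockdown experiment POLR1B was 9.36, 9.50 and 8.74 with ATRA and 9.51, 9.80 and 9.65 without in WT cells (log2 fold change -0.45), and 9.18, 9.24 and 8.61 with ATRA and 8.54, 8.81 and 9.49 without in Scr cells (0.06). It was 8.72, 9.01 and 9.03 with ATRA and 8.98, 9.44 and 9.46 without in shEZH2#1 cells (-0.38) and 8.48, 8.59 and 9.04 with ATRA and 9.43, 8.85 and 9.64 without in shEZH2#2 cells (-0.61). None of the 4 passed the test, the groups overlapped in all but WT cells, the call with ATRA alone was lost without ATRA replicate 1 (adjusted p = 0.0815), and that in GSK343 cells without GSK343+ATRA replicate 1 or 2 or GSK343 replicate 2 (up to 0.101).

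The other called factors of rRNA transcription were NOLC1, a nucleolar chaperone of snoRNPs (log2 fold change -0.77 with ATRA alone), MYBBP1A, a nucleolar regulator of rRNA synthesis (-0.64), and DDX21, an RNA helicase that binds rRNA genes and transcripts (-0.48). The same 4 genes were called in GSK343 cells. The NOLC1 call with ATRA alone held with any array left out. With ATRA alone, MYBBP1A was lost without untreated replicate 1 or ATRA replicate 1 or 2 (adjusted p up to 0.0730) and DDX21 without untreated replicate 1 or 2 or ATRA replicate 1 (up to 0.173). In GSK343 cells NOLC1 (up to 0.141), MYBBP1A (up to 0.224) and DDX21 (up to 0.175) were each lost without replicate 1 or 2 of either group. MYBBP1A also fell in shEZH2#2 cells (-0.58, adjusted p = 0.022), a call lost without shEZH2#2 replicate 2 or 3 or shEZH2#2+ATRA replicate 1 (up to 0.203). POLR1A, the catalytic subunit of the polymerase, had a log2 fold change of -0.37 and POLR1C, a subunit shared with RNA polymerase III, of -0.39 with ATRA alone, and neither passed the test. NCL (nucleolin), which had the highest mean probe set level of the 40, was 12.01, 12.24 and 12.24 on the ATRA arrays and 12.53, 12.53 and 12.40 on the untreated arrays. The groups did not overlap and the adjusted p was 0.0375, but the fold of 1.25 was below the threshold.

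In the snoRNP core, which guides rRNA methylation and pseudouridylation, DKC1 and RRP9 had the largest changes. DKC1 (dyskerin) is the pseudouridine synthase of the H/ACA snoRNPs and was 9.45, 9.91 and 10.10 with ATRA alone, against 10.71, 10.71 and 10.34 in untreated cells (log2 fold change -0.77, SE 0.16, adjusted p = 0.00248). It was 9.68, 9.76 and 10.20 with ATRA and 10.61, 10.97 and 10.46 without in GSK343 cells (log2 fold change -0.81, SE 0.16, adjusted p = 0.00201). The groups were apart in both, and the call with ATRA alone was lost without ATRA replicate 1 (adjusted p = 0.0540). In the knockdown experiment the log2 fold changes of DKC1 lay between -0.22 and -0.05, and in HKMTI-1-005 cells it was -0.20, none of them called.

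RRP9 is specific to the U3 snoRNP, which is needed to cut the small-subunit rRNA free. With ATRA alone it was 7.27, 7.53 and 7.67, against 8.18, 8.40 and 7.93 in untreated cells, without overlap but just short of the test (log2 fold change -0.68, SE 0.22, adjusted p = 0.0541). It fell in GSK343 cells, at 7.18, 7.45 and 7.95 with ATRA and 8.21, 8.62 and 8.27 without (log2 fold change -0.84, SE 0.22, adjusted p = 0.0173), and was 8.08, 7.67 and 7.80 with ATRA and 8.24, 8.44 and 8.01 without in HKMTI-1-005 cells (-0.38). The call in GSK343 cells was lost without GSK343+ATRA replicate 1 or 2 or GSK343 replicate 2 (adjusted p up to 0.162). In shEZH2#2 cells it fell again, at 7.08, 7.94 and 7.61 with ATRA and 8.13, 8.44 and 8.37 without (log2 fold change -0.77, SE 0.22, adjusted p = 0.0381). That call was lost without shEZH2#2+ATRA replicate 1 or 3 or shEZH2#2 replicate 2 or 3 (adjusted p up to 0.353). RRP9 was 7.51, 7.69 and 7.46 with ATRA and 7.88, 8.23 and 8.09 without in shEZH2#1 cells (-0.52), 7.43, 7.84 and 7.95 with ATRA and 7.61, 8.51 and 7.90 without in WT cells (-0.27) and 8.20, 8.26 and 7.51 with ATRA and 8.46, 8.35 and 8.07 without in Scr cells (-0.30). Only the shEZH2#1 groups were apart among these 3. FBL (fibrillarin), the methyltransferase of the C/D snoRNPs, was called in shEZH2#2 cells only (log2 fold change -0.39, adjusted p = 0.00506). It had log2 fold changes below 0 in all 7 backgrounds. Its adjusted p was 0.0101 with ATRA alone, where the fold of 1.27 was below 1.3, and the call in shEZH2#2 cells was lost without shEZH2#2 replicate 2 or shEZH2#2+ATRA replicate 1 (up to 0.103).

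**Figure D2:**
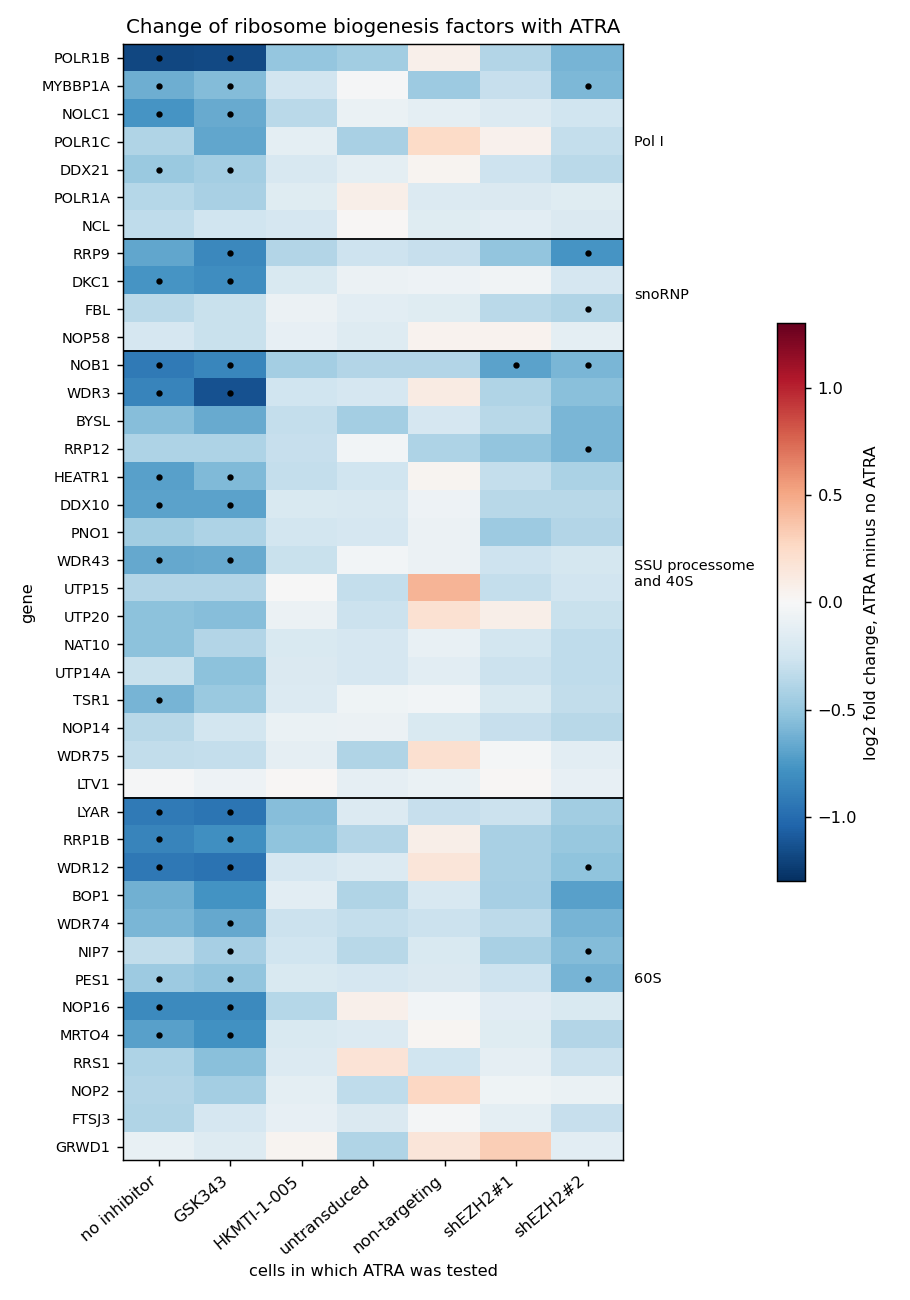
Log2 fold change with ATRA (ATRA minus no ATRA, colour scale, blue below 0) of the 40 measured factors (rows, grouped by step of the pathway) in the 7 backgrounds (columns). Dots mark genes called by limma. With ATRA alone and in GSK343 cells 17 and 19 genes are marked, and in HKMTI-1-005, untransduced and non-targeting cells none is.

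The small subunit route held NOB1, which was called in more backgrounds than any other factor. NOB1 is the endonuclease that makes the last cut of the small-subunit rRNA. With ATRA alone it was 9.36, 9.70 and 9.68, against 10.54, 10.70 and 10.26 in untreated cells (log2 fold change -0.91, SE 0.16, adjusted p = 0.000361), a 1.88-fold fall. In GSK343 cells it was 9.52, 9.47 and 10.05 with ATRA and 10.52, 10.78 and 10.27 without (log2 fold change -0.84, SE 0.16, adjusted p = 0.00114), and in HKMTI-1-005 cells 9.98, 10.11 and 10.18 with ATRA and 10.42, 10.72 and 10.46 without (log2 fold change -0.44, SE 0.16, adjusted p = 0.187). All 3 pairs of groups were apart, and the first 2 passed the test with any array left out. In shEZH2#1 cells NOB1 was 9.49, 9.72 and 9.78 with ATRA and 10.33, 10.53 and 10.21 without (log2 fold change -0.70, SE 0.16, adjusted p = 0.00661), and in shEZH2#2 cells 9.43, 9.85 and 10.01 with ATRA and 10.23, 10.35 and 10.49 without (log2 fold change -0.60, SE 0.16, adjusted p = 0.0255). It was 10.08, 10.09 and 10.28 with ATRA and 10.48, 10.60 and 10.51 without in WT cells (log2 fold change -0.38, SE 0.16, adjusted p = 0.407) and 10.11, 10.29 and 9.62 with ATRA and 10.23, 10.46 and 10.46 without in Scr cells (log2 fold change -0.38, SE 0.16, adjusted p = 0.253). NOB1 thus fell with both hairpins, did not pass the test in the 2 control backgrounds, and overlapped between groups in Scr cells alone. That does not show that its response differed with the hairpins. For the ATRA effect with the hairpins minus that in Scr cells, limma called none of the factors. The call was lost without shEZH2#1 replicate 2 or shEZH2#1+ATRA replicate 1 in shEZH2#1 cells (adjusted p up to 0.0582), and without shEZH2#2 replicate 2 or 3 or shEZH2#2+ATRA replicate 1 in shEZH2#2 cells (up to 0.273).

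WDR3, the human counterpart of a yeast small subunit processome protein, varied more between arrays. It was 7.87, 8.51 and 8.96 on the ATRA arrays and 9.52, 9.47 and 8.90 on the untreated arrays (log2 fold change -0.85, SE 0.26, adjusted p = 0.0373), where the highest ATRA array exceeded the lowest untreated array. In GSK343 cells WDR3 was 7.99, 8.28 and 9.12 with ATRA and 9.67, 9.95 and 9.16 without (log2 fold change -1.13, SE 0.26, adjusted p = 0.00601), and in HKMTI-1-005 cells 9.32, 9.00 and 8.88 with ATRA and 9.25, 9.55 and 9.17 without (-0.26). The call with ATRA alone was lost without replicate 1 or 2 of either group (adjusted p up to 0.344), and that in GSK343 cells without GSK343+ATRA replicate 1 or GSK343 replicate 2 (up to 0.0883). In the knockdown experiment WDR3 was 9.06, 9.18 and 8.81 with ATRA and 8.96, 9.50 and 9.24 without in WT cells (-0.22) and 9.19, 9.46 and 8.61 with ATRA and 8.78, 8.94 and 9.25 without in Scr cells (0.10). It was 8.62, 8.76 and 8.84 with ATRA and 8.87, 9.31 and 9.22 without in shEZH2#1 cells (-0.39) and 8.36, 8.87 and 9.03 with ATRA and 9.45, 9.08 and 9.36 without in shEZH2#2 cells (-0.54), apart with each hairpin but short of the test.

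BYSL (bystin), a factor of small subunit maturation, had log2 fold changes below 0 in all 7 backgrounds and passed the test in none. It was 7.83, 8.30 and 8.41 with ATRA alone, against 8.97, 8.85 and 8.39 in untreated cells (log2 fold change -0.55, SE 0.23, adjusted p = 0.156). In GSK343 cells it was 7.90, 7.82 and 8.78 with ATRA and 8.85, 9.09 and 8.54 without (-0.66), and in HKMTI-1-005 cells 8.76, 8.40 and 8.64 with ATRA and 8.82, 9.24 and 8.66 without (-0.31). In each of these the groups overlapped by 1 array. BYSL was 8.72, 8.78 and 8.21 with ATRA and 9.06, 9.24 and 8.72 without in WT cells (-0.44) and 8.33, 8.56 and 7.87 with ATRA and 8.27, 8.35 and 8.80 without in Scr cells (-0.22), which overlapped too. It was 8.12, 8.52 and 8.58 with ATRA and 8.63, 8.93 and 8.76 without in shEZH2#1 cells (-0.36) and 7.94, 8.32 and 8.47 with ATRA and 8.84, 8.66 and 9.01 without in shEZH2#2 cells (-0.60), and the groups were apart with both hairpins.

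HEATR1 (-0.70 with ATRA alone), WDR43 (-0.67) and the helicase DDX10 (-0.69), all of the processome, and TSR1 (-0.60), a factor of late small subunit maturation, were the other called genes of this route. The first 3 were also called in GSK343 cells. With ATRA alone, HEATR1 and WDR43 were called with any array left out, DDX10 was lost without ATRA replicate 1 (adjusted p = 0.102), and TSR1 without untreated replicate 1 or 2 or ATRA replicate 1 (up to 0.114). In GSK343 cells WDR43 was lost without GSK343+ATRA replicate 1 (0.0532), and HEATR1 (up to 0.136) and DDX10 (up to 0.0811) without GSK343+ATRA replicate 1 or 2 or GSK343 replicate 2. RRP12, a small subunit export factor, was called in shEZH2#2 cells alone (log2 fold change -0.59, SE 0.17, adjusted p = 0.0287), a call lost without shEZH2#2+ATRA replicate 1 or shEZH2#2 replicate 1 or 3 (adjusted p up to 0.305). UTP15, another processome protein, ran from -0.38 in GSK343 cells to 0.44 in Scr cells, the highest value of any factor with ATRA, which did not pass the test (adjusted p = 0.45). LTV1, which assists export of the small subunit, had the smallest mean size of change of the 40, with log2 fold changes between -0.12 and 0.01.

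The large subunit route held 6 of the 17 calls with ATRA alone and 8 of the 19 in GSK343 cells. WDR12 forms a complex with PES1 and BOP1 that is needed to mature the large-subunit rRNA. It was 9.34, 9.81 and 10.13 with ATRA alone, against 10.76, 10.76 and 10.54 in untreated cells (log2 fold change -0.93, SE 0.16, adjusted p = 0.000189), and 9.62, 9.76 and 10.20 with ATRA and 10.90, 10.94 and 10.61 without in GSK343 cells (log2 fold change -0.96, SE 0.16, adjusted p = 0.000171). These are falls of 1.9-fold and 1.94-fold without overlap, and both calls held with any array left out. In HKMTI-1-005 cells WDR12 was 10.40, 10.55 and 10.22 with ATRA and 10.59, 10.81 and 10.42 without (log2 fold change -0.22, SE 0.16, adjusted p = 0.714), where the groups overlapped. In shEZH2#2 cells it was 9.60, 10.11 and 10.24 with ATRA and 10.59, 10.34 and 10.58 without (log2 fold change -0.52, SE 0.16, adjusted p = 0.0475), and in shEZH2#1 cells 10.10, 10.07 and 10.02 with ATRA and 10.52, 10.59 and 10.34 without (log2 fold change -0.42, SE 0.16, adjusted p = 0.13). Both pairs were apart, and the call in shEZH2#2 cells was lost without any of 4 arrays (shEZH2#2+ATRA replicates 1 and 2, shEZH2#2 replicates 1 and 3; adjusted p up to 0.446). In WT cells it was 10.20, 10.38 and 10.53 with ATRA and 10.53, 10.59 and 10.53 without (-0.18), with the ATRA arrays just below. In Scr cells it was 10.47, 10.58 and 10.51 with ATRA and 10.27, 10.41 and 10.39 without (0.16, adjusted p = 0.706), and there alone all 3 ATRA arrays lay above all 3 without ATRA.

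PES1, the scaffold of that complex, was called with ATRA alone (log2 fold change -0.48, SE 0.15, adjusted p = 0.0437), in GSK343 cells (log2 fold change -0.52, SE 0.15, adjusted p = 0.0314) and in shEZH2#2 cells (log2 fold change -0.60, SE 0.15, adjusted p = 0.0121). Without 1 array the first 2 calls were lost for each of 4 of the 6 arrays (replicates 1 and 2 of either group), and the last without shEZH2#2 replicate 2 or shEZH2#2+ATRA replicate 1 (adjusted p up to 0.243, 0.243 and 0.151). BOP1, the remaining member of the complex, was 7.34, 7.51 and 7.85 with ATRA alone, against 8.18, 8.34 and 8.05 in untreated cells, and was short of the test although the groups were apart (log2 fold change -0.62, SE 0.26, adjusted p = 0.164). In GSK343 cells it was 7.49, 7.17 and 7.95 with ATRA and 8.47, 8.24 and 8.23 without (-0.78), and in HKMTI-1-005 cells 8.53, 8.02 and 7.78 with ATRA and 8.30, 8.33 and 8.10 without (-0.13), apart in GSK343 cells only. BOP1 was 7.76, 8.38 and 7.95 with ATRA and 8.10, 8.70 and 8.48 without in WT cells (-0.39) and 8.07, 8.21 and 6.91 with ATRA and 7.91, 7.54 and 8.38 without in Scr cells (-0.21). It was 7.62, 7.70 and 7.62 with ATRA and 7.68, 8.35 and 8.22 without in shEZH2#1 cells (-0.44) and 7.45, 7.81 and 7.82 with ATRA and 8.52, 8.02 and 8.65 without in shEZH2#2 cells (-0.71), apart with shEZH2#2. A second BOP1 probe set gave log2 fold changes of -0.75 with ATRA alone, -0.85 in GSK343 cells and -0.34 in HKMTI-1-005 cells, and of -0.23 in WT, -0.53 in Scr, -0.64 in shEZH2#1 and -0.74 in shEZH2#2 cells.

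LYAR, a nucleolar zinc finger protein tied to rRNA processing, was 8.43, 9.09 and 9.34 with ATRA alone, against 10.14, 9.93 and 9.56 in untreated cells (log2 fold change -0.92, SE 0.21, adjusted p = 0.00434). It was 8.55, 8.79 and 9.65 with ATRA and 9.93, 10.19 and 9.72 without in GSK343 cells (log2 fold change -0.95, SE 0.21, adjusted p = 0.00421), and 9.55, 9.68 and 9.28 with ATRA and 9.84, 10.55 and 9.79 without in HKMTI-1-005 cells (log2 fold change -0.55, SE 0.21, adjusted p = 0.206), the lowest fold change of any factor in that background. The groups were apart in all 3, though the calls were lost without ATRA replicate 1 (adjusted p = 0.0870) and GSK343+ATRA replicate 1 (0.0732). LYAR was 9.50, 9.52 and 9.51 with ATRA and 9.68, 9.71 and 9.68 without in WT cells (-0.18) and 9.54, 9.54 and 9.23 with ATRA and 9.71, 9.79 and 9.71 without in Scr cells (-0.30). It was 9.32, 9.28 and 9.36 with ATRA and 9.36, 9.75 and 9.68 without in shEZH2#1 cells (-0.28) and 9.20, 9.40 and 9.48 with ATRA and 9.83, 9.82 and 9.79 without in shEZH2#2 cells (-0.45). None of these 4 was called, but in WT, Scr and shEZH2#2 cells the arrays with ATRA all lay below those without.

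RRP1B, a nucleolar protein of large subunit processing, was 8.93, 8.99 and 9.37 with ATRA alone, against 10.05, 10.00 and 9.80 in untreated cells (log2 fold change -0.85, SE 0.22, adjusted p = 0.00991). It was 8.89, 8.87 and 9.50 with ATRA and 9.77, 10.24 and 9.65 without in GSK343 cells (log2 fold change -0.80, SE 0.22, adjusted p = 0.0183) and 9.71, 9.37 and 9.34 with ATRA and 9.88, 10.27 and 9.82 without in HKMTI-1-005 cells (-0.52). The groups were apart in all 3. RRP1B was 9.74, 9.79 and 9.61 with ATRA and 9.92, 10.18 and 10.18 without in WT cells (-0.38) and 9.86, 9.81 and 9.05 with ATRA and 9.35, 9.16 and 9.97 without in Scr cells (0.08). It was 8.98, 9.04 and 9.20 with ATRA and 9.21, 9.68 and 9.60 without in shEZH2#1 cells (-0.42) and 9.04, 9.41 and 9.60 with ATRA and 9.92, 9.51 and 10.10 without in shEZH2#2 cells (-0.49), and overlapped between groups in Scr and shEZH2#2 cells. Its calls were lost without ATRA replicate 1 with ATRA alone (adjusted p = 0.0749), and without GSK343+ATRA replicate 1 or 2 or GSK343 replicate 2 in GSK343 cells (up to 0.179).

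WDR74, a large subunit assembly factor, was 9.63, 9.94 and 10.30 with ATRA alone, against 10.44, 10.73 and 10.47 in untreated cells, apart but short of the test (log2 fold change -0.59, SE 0.20, adjusted p = 0.0588). It was 9.82, 9.85 and 10.20 with ATRA and 10.62, 10.72 and 10.52 without in GSK343 cells (log2 fold change -0.67, SE 0.20, adjusted p = 0.0343), a call lost without any of 5 arrays (all but GSK343+ATRA replicate 3; adjusted p up to 0.169), and 10.38, 10.52 and 10.15 with ATRA and 10.56, 10.90 and 10.42 without in HKMTI-1-005 cells (-0.28). WDR74 overlapped between groups in every background of the knockdown experiment. It was 10.38, 10.65 and 10.31 with ATRA and 10.51, 10.85 and 10.91 without in WT cells (-0.31) and 10.36, 10.53 and 9.86 with ATRA and 10.41, 10.33 and 10.84 without in Scr cells (-0.28). It was 9.94, 9.88 and 9.98 with ATRA and 9.85, 10.43 and 10.54 without in shEZH2#1 cells (-0.34) and 9.70, 9.90 and 10.29 with ATRA and 10.58, 10.27 and 10.87 without in shEZH2#2 cells (-0.61).

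NOP16, a large subunit assembly factor (-0.83 with ATRA alone and -0.83 in GSK343 cells), and MRTO4, which holds the place of a stalk protein on the immature large subunit (-0.70 and -0.79), were the other genes of this route called in both. The MRTO4 calls held with any array left out, whereas NOP16 was lost without untreated replicate 1 or ATRA replicate 1 with ATRA alone (adjusted p up to 0.130) and without GSK343+ATRA replicate 1 or GSK343 replicate 2 in GSK343 cells (up to 0.169). NIP7, another large subunit factor, was called in GSK343 cells (-0.43, adjusted p = 0.0478) and in shEZH2#2 cells (-0.56, adjusted p = 0.00879), and was -0.32 with ATRA alone. The first call was lost without replicate 1 or 2 of either group (adjusted p up to 0.269) and the second without shEZH2#2+ATRA replicate 1 (0.0519). GRWD1, which binds a large subunit protein, was above 0 in 3 of the 7 backgrounds, with log2 fold changes from -0.39 in WT cells to 0.32 in shEZH2#1 cells, none of them called.

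**Figure D3:**
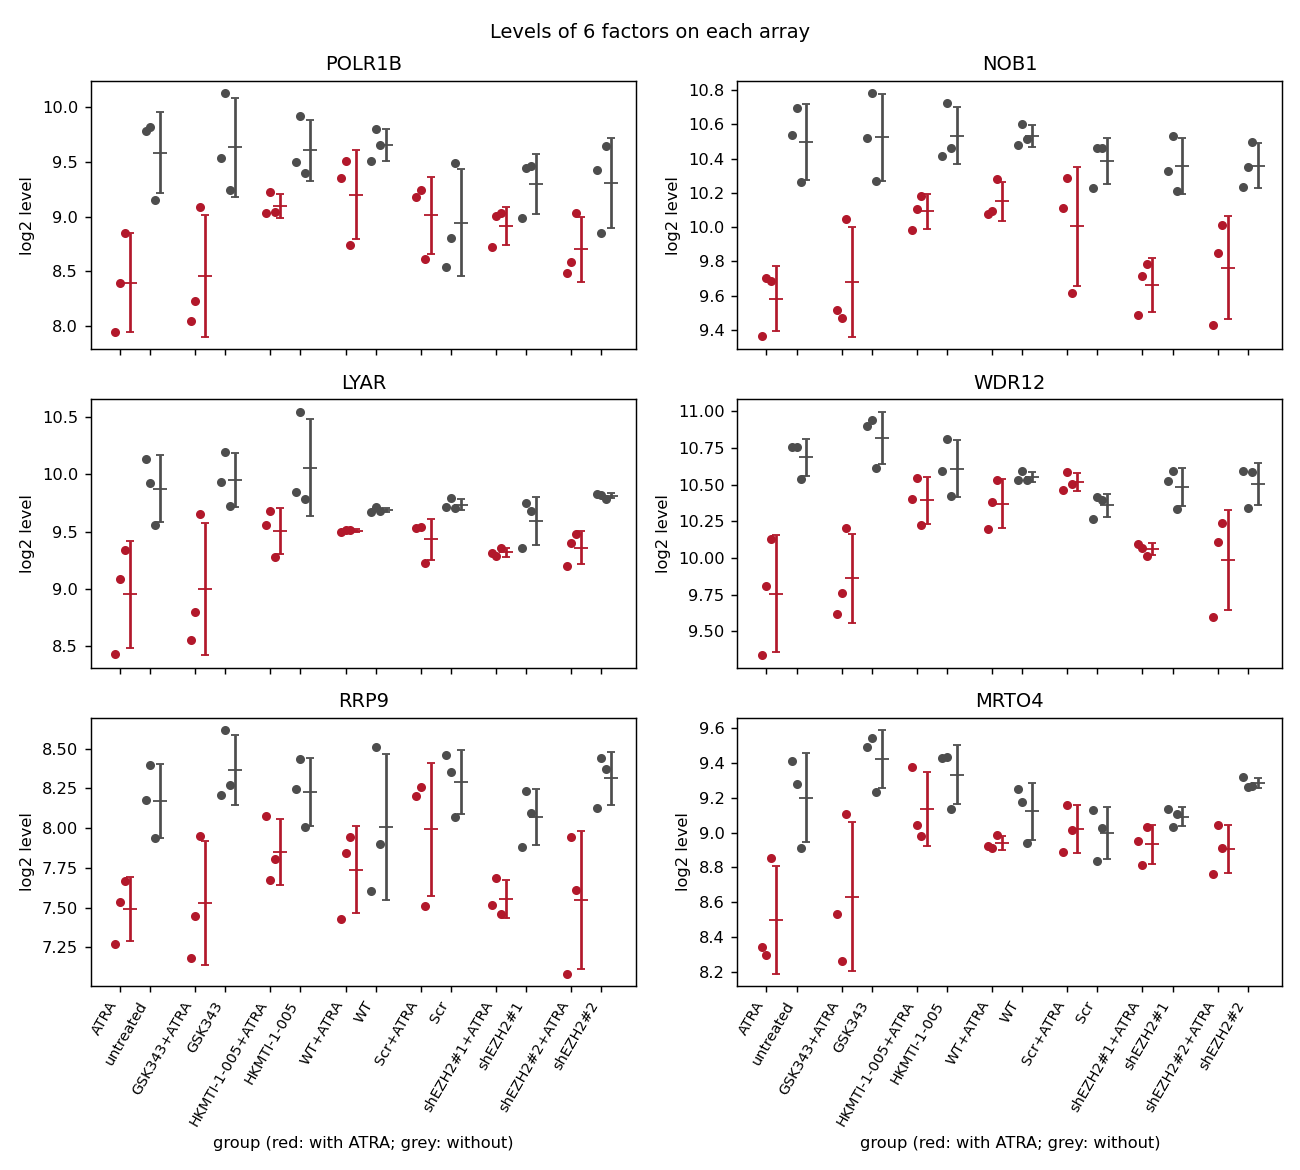
Log2 level on each array (vertical axis) of POLR1B, NOB1, LYAR, WDR12, RRP9 and MRTO4 by group (horizontal axis), with ATRA groups in red left of their groups without ATRA in grey. Points are arrays, and bars show mean ± SD (n = 3). With ATRA alone and in GSK343 cells the arrays with ATRA lie below those without for all 6 genes, and WDR12 in Scr cells is the only case in which all 3 ATRA arrays lie above.

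The 7 backgrounds differed in how many factors passed the test. In GSK343 cells 19 of 40 fell with ATRA and none rose (among all genes, 7.06% were called lower and 3.35% higher). The plain unpaired test called none of the 19 and none of all genes. The median was -0.55, against -0.07 over all genes, with all 40 below 0 and 22 without overlap, against 21.9% of all genes. The count of calls was 4 without GSK343+ATRA replicate 1, 6 without GSK343 replicate 2, 8 without GSK343+ATRA replicate 2 and 30 without GSK343+ATRA replicate 3. WDR12, DKC1, NOB1 and MRTO4 were called throughout. Of the 17 genes called with ATRA alone, 16 (94.1%) were among the 19 called in GSK343 cells (84.2%). The same overlap was not counted over all genes, so it cannot be called particular to the factors. The 2 comparisons share no arrays.

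In HKMTI-1-005 cells limma called none of the factors, where 1.67% of all genes were called lower and 2.38% higher. At an unadjusted p under 0.05, 5 were lower (8.23% of all genes) and none higher (7.87%), and the plain unpaired test called none (13 of all genes). The median was -0.20, against -0.01 over all genes, with 38 of 40 factors below 0. On 8 factors the groups were apart with ATRA lower, against 13.1% of all genes.

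In WT cells of the knockdown experiment limma called none, where 0.801% of all genes were called lower and 1.33% higher, with 2 factors lower at an unadjusted p under 0.05 (8.67% of all genes), none higher (5.12%) and none called by the plain unpaired test. The median was -0.21, against -0.07 over all genes, and 36 factors were below 0. In Scr cells limma again called none, where 1.21% of all genes were called lower and 3.77% higher, with 3 factors lower at an unadjusted p under 0.05 (6.9% of all genes), none higher (15.6%) and none called by the plain unpaired test. There the median was -0.08, against 0.07 over all genes, and 14 factors were above 0. On 3 factors the ATRA arrays all lay below, against 5.88% of all genes, and on WDR12 alone above, against 8.52%. Leaving out Scr replicate 3 gave 2 calls and a median of 0.05. Leaving out the 6 arrays of high median, which leaves only Scr replicate 3 in the Scr group, gave a median of -0.13.

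In shEZH2#1 cells NOB1 was the only factor called (3.75% of all genes were called lower), while the median was -0.27, against -0.00195 over all genes, and 18 factors were apart with ATRA lower, against 14.4%. The count was 0 without shEZH2#1 replicate 2 or shEZH2#1+ATRA replicate 1, 2 without shEZH2#1+ATRA replicate 3 or without the 6 arrays, and 3 without shEZH2#1 replicate 3. In shEZH2#2 cells 8 factors fell and none rose (among all genes, 3.92% were called lower and 4.44% higher). The plain unpaired test called none of these, nor NOB1 in shEZH2#1 cells. The 8 were RRP9, PES1, NOB1, RRP12, MYBBP1A, NIP7, WDR12 and FBL. The median was -0.35, against -0.03 over all genes, all 40 were below 0 and 20 were apart, against 13%. The count was 0 without shEZH2#2+ATRA replicate 1, 3 without shEZH2#2 replicate 3, 4 without shEZH2#2 replicate 2 and 10 without the 6 arrays.

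**Figure D4:**
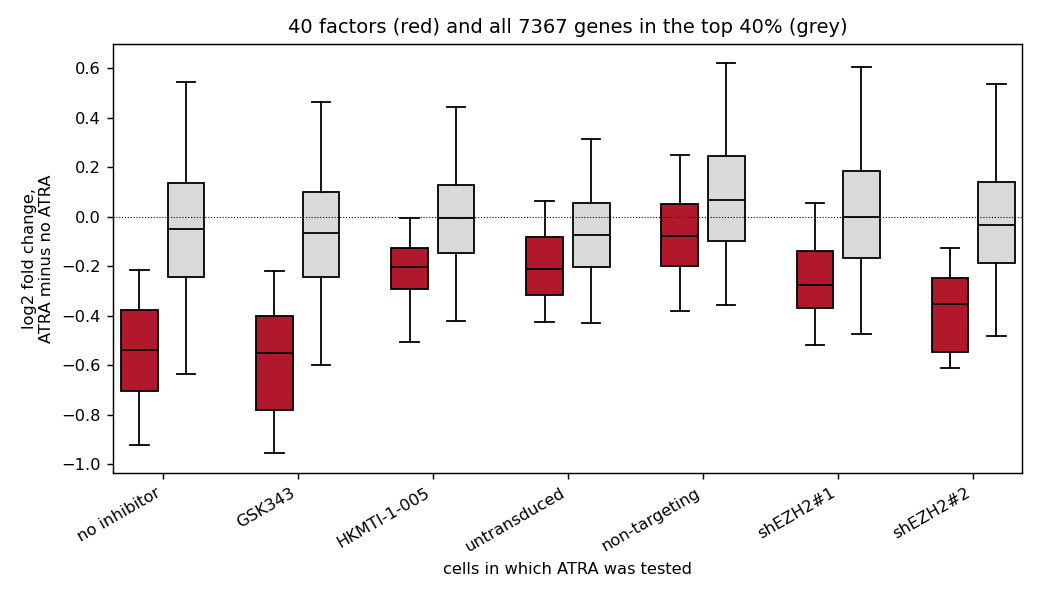
Log2 fold change with ATRA (vertical axis) of the 40 factors (red) and of all 7367 genes in the top 40% (grey) in the 7 backgrounds (horizontal axis). Boxes span the quartiles with the median as a line, and whiskers the central 90%. The medians of the factors lie between -0.55 and -0.08 and below the medians of all genes (-0.07 to 0.07) in each background.

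Over the 7 backgrounds, 21 factors had log2 fold changes below 0 in all, and 18 were called in none. NOB1 was called in 4, WDR12, MYBBP1A and PES1 in 3, 14 factors in 2 and 4 factors in 1. The same counts were not made over all genes, so they cannot be called particular to the factors. That a factor passed in one background and not in another does not show that its response differed, so the differences of the ATRA effect were tested. With HKMTI-1-005 minus without inhibitor, all 40 differences were above 0, with a median of 0.31 against 0.04 over all genes. Limma called none of the factors and no other gene, and 6 factors were higher at an unadjusted p under 0.05 (WDR12, DKC1, MRTO4, FBL, DDX10 and NOB1), against 2.76% of all genes. The difference was 0.71 for WDR12 (95% interval 0.26 to 1.16, adjusted p = 0.771). With GSK343 minus without inhibitor the median was -0.01, limma called none, and none had an unadjusted p under 0.05. All these differences share the ATRA and untreated arrays.

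For the hairpins minus Scr, limma called none of the factors, with 4 lower and none higher at an unadjusted p under 0.05 (7.91% of all genes lower) and a median of -0.24 against -0.08 over all genes. WDR12 had a difference of -0.63 (95% interval -1.02 to -0.24, adjusted p = 0.329). Without Scr replicate 3 there was 1 call. For Scr minus WT limma called none, with 1 lower (2.06% of all genes) and 2 higher (10.1%) at an unadjusted p under 0.05, and 2 were called without Scr replicate 3.

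ATRA was also tested on unmodified cells in both experiments. The effect in the inhibitor experiment minus that in WT cells of the knockdown experiment had a median of -0.35 over the factors, against 0.03 over all genes, and was below 0 for 35 of 40. Limma called none of these differences and none among all genes. At an unadjusted p under 0.05, 12 factors were lower and none higher, against 5.7% of all genes lower, with WDR12 at -0.74 (95% interval -1.20 to -0.29, adjusted p = 0.353) and NOP16 at -0.89 (-1.48 to -0.30, adjusted p = 0.414). Experiment and any difference in culture or handling cannot be told apart here.

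With the inhibitors alone, no factor passed the test. GSK343 gave a median of 0.07 against 0.05 over all genes, and HKMTI-1-005 a median of 0.04 against 0.02. Limma and the plain unpaired test called none of the factors under either compound, and none had an unadjusted p under 0.05, where 2.93% of all genes were higher with GSK343 (with GSK343, 0% of all genes were called lower and 0.0136% higher, and with HKMTI-1-005 0.176% and 0.0407%). The doses of the 2 compounds differ, so their values are only set side by side.

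Added to ATRA, each compound was compared with ATRA alone, and the 2 compounds were not tested against each other. In HKMTI-1-005+ATRA cells all 40 factors were higher on average than in ATRA cells, with a median of 0.35 against 0.06 over all genes. On 17 factors all 3 HKMTI-1-005+ATRA arrays lay above all 3 ATRA arrays, against 17.3% of all genes, and 18 were higher at an unadjusted p under 0.05, against 9.27%. Limma called 1 factor, MRTO4 (0.394% of all genes were called higher). MRTO4 was 9.38, 9.04 and 8.98 in HKMTI-1-005+ATRA cells, against 8.34, 8.30 and 8.85 in ATRA cells (log2 fold change 0.64, SE 0.16, adjusted p = 0.05). The groups were apart, but the adjusted p stood at the threshold, and the call was lost without replicate 1 or 2 of either group (adjusted p up to 0.323). The count of factors called was 0 in each of those cases, 2 without HKMTI-1-005+ATRA replicate 3 and 3 without ATRA replicate 3. WDR12 was 10.40, 10.55 and 10.22 in HKMTI-1-005+ATRA cells, against 9.34, 9.81 and 10.13 in ATRA cells (log2 fold change 0.63, SE 0.16, adjusted p = 0.0512), and FBL had a log2 fold change of 0.35 (adjusted p = 0.0524), both just short of passing the test. The plain unpaired test called none.

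In GSK343+ATRA cells the median difference from ATRA cells was 0.06, against 0.03 over all genes. Limma and the plain unpaired test called none of the factors (0.0136% of all genes were called higher and 0% lower), and FBL alone was higher at an unadjusted p under 0.05 (log2 fold change 0.20, 95% interval 0.02 to 0.38). MRTO4 was 8.53, 8.26 and 9.10 there (log2 fold change 0.14, 95% interval -0.18 to 0.45) and WDR12 was 9.62, 9.76 and 10.20 (0.10, -0.22 to 0.42), and for both genes the arrays overlapped those of ATRA cells. Both comparisons use the same 3 ATRA arrays, as does the comparison of ATRA with untreated cells.

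**Figure D5:**
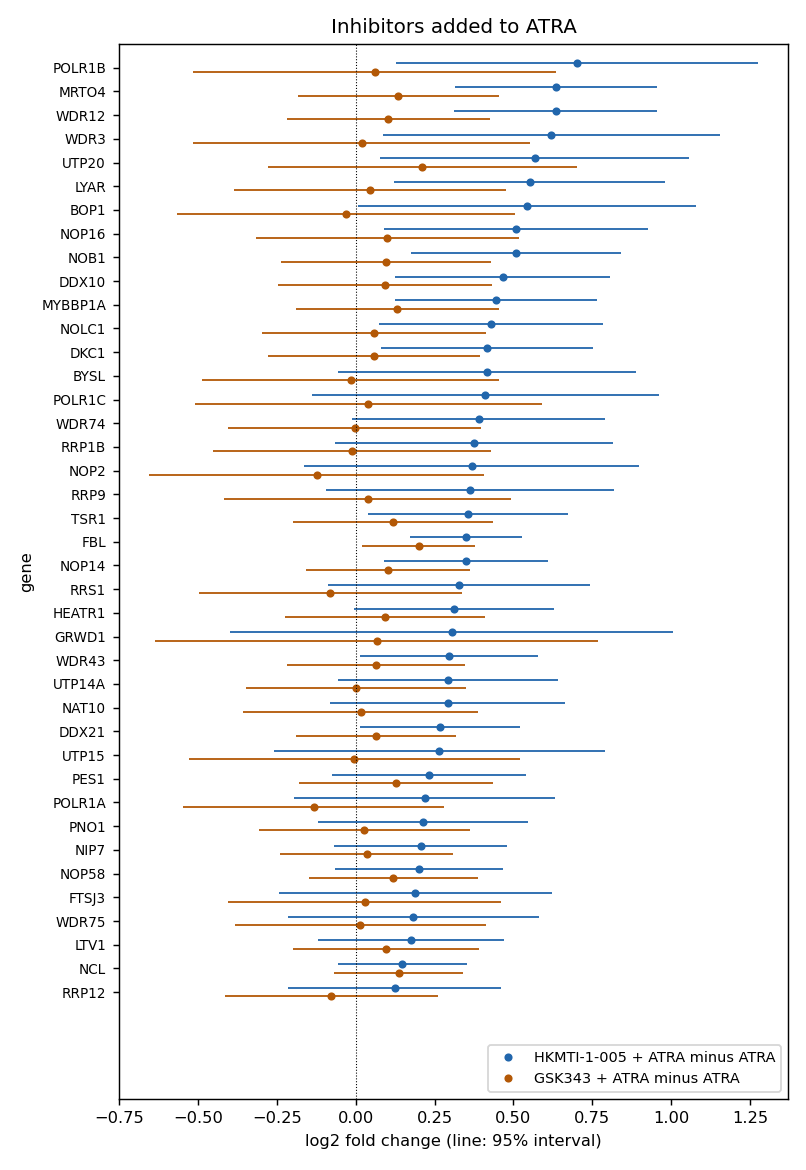
Log2 fold change (horizontal axis, lines are 95% intervals) of the 40 factors (vertical axis) in HKMTI-1-005+ATRA minus ATRA cells (blue) and GSK343+ATRA minus ATRA cells (orange), 3 arrays per group. All 40 blue points lie above 0, with a median of 0.35, and the orange points lie around a median of 0.06. The 2 compounds were given at different doses and share the ATRA arrays.

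Without ATRA, no factor passed the test for EZH2 knockdown (the average of both hairpins). Against Scr the median was 0.07 (0.13 over all genes) and against WT -0.12 (-0.08 over all genes). Limma and the plain unpaired test called none in either. At an unadjusted p under 0.05, against Scr 1 factor was lower (6.42% of all genes) and 3 were higher (25%), and against WT 4 were lower (12.3%) and none higher (4.09%). None of these shares of the factors was above that of all genes in its direction. In limma, called among all genes were 1.22% lower and 4.9% higher against Scr, and 0.204% in each direction against WT. Against Scr there were 4 calls without Scr replicate 3 and 1 without shEZH2#2 replicate 2. Calls over all genes were not counted with these arrays left out, so neither count can be called particular to the factors.

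With ATRA, WDR12 was the only factor called in the knockdown, and was lower than in Scr+ATRA cells (1.98% of all genes were called lower). It was 10.10, 10.07 and 10.02 in shEZH2#1+ATRA cells and 9.60, 10.11 and 10.24 in shEZH2#2+ATRA cells, against 10.47, 10.58 and 10.51 in Scr+ATRA cells (log2 fold change -0.50, SE 0.14, adjusted p = 0.0342). All 6 knockdown arrays lay below the 3 Scr arrays. The call was lost without any of 6 arrays (Scr+ATRA replicates 1, 2 and 3, shEZH2#1+ATRA replicates 2 and 3, shEZH2#2+ATRA replicate 1; adjusted p up to 0.130). The count of factors called was 0 without 5 of these 6, 2 without Scr+ATRA replicate 3, and 3 without shEZH2#2+ATRA replicate 3 or without the 6 arrays of high median. Against WT+ATRA cells the median was -0.24, against -0.02 over all genes, and 38 factors were below 0. Limma and the plain unpaired test called none there (1.68% of all genes were called lower and 1.6% higher), 13 were lower and none higher at an unadjusted p under 0.05, against 10.5% lower, and 10 were apart, against 4.93%. There was 1 call without shEZH2#2+ATRA replicate 3 and 2 without the 6 arrays.

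Between the 2 control backgrounds without ATRA, 3 factors differed. Scr cells had lower NOP2, an rRNA methyltransferase, and lower UTP14A and UTP15, both of the processome, than WT cells, where 18.4% of all genes were called lower and the median over all genes was -0.20 (-0.16 over the factors). NOP2 was 8.43, 8.44 and 9.56 in Scr cells, against 9.75, 10.09 and 9.59 in WT cells (log2 fold change -0.996, SE 0.26, adjusted p = 0.0136), and UTP15 was 7.15, 7.59 and 8.56, against 8.68, 8.72 and 8.47 (log2 fold change -0.85, SE 0.26, adjusted p = 0.0278). UTP14A was 8.46, 8.52 and 9.21 in Scr cells, against 9.36, 9.32 and 9.07 in WT cells (log2 fold change -0.52, SE 0.17, adjusted p = 0.0432). Scr replicates 1 and 2 were low for all 3 genes and replicate 3 was near the WT arrays. The 2 low arrays are among the 6 of high median. With all arrays, 7.5% of the factors were called lower, against the 18.4% of all genes. No factor was called without Scr replicate 1 or 2 or WT replicate 1 or 2, while 12 were called without Scr replicate 3 (11 lower and 1 higher). The share of all genes called without Scr replicate 3 was not counted, so the 12 cannot be called particular to the factors. Leaving out the 6 arrays leaves only Scr replicate 3 in the Scr group. The log2 fold changes were then -0.25 for NOP2, -0.06 for UTP15 and -0.04 for UTP14A. With ATRA, limma and the plain unpaired test called none of the factors between Scr and WT (0.733% of all genes were called lower and 0.258% higher), with 2 lower (8.32% of all genes) and 1 higher (2.97%) at an unadjusted p under 0.05.

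Other genes of the pathway, a list of 100 outside the 45, also had medians below 0 in all 7 backgrounds. Of these, 97 were measured and 95 were in the top 40%. With ATRA alone 14 fell and none rose (14.7%, against 7.85% of all genes), and the median was -0.31. POLR1F and POLR1E, further subunits of RNA polymerase I, had log2 fold changes of -0.90 and -0.82, and URB2 and NOC3L, both of ribosome assembly, of -0.73 each. In GSK343 cells 18 fell and none rose (18.9%, against 7.06% of all genes). In shEZH2#1 cells 3 were called lower (3.16%, against 3.75% of all genes) and in shEZH2#2 cells 2 (2.11%, against 3.92%), shares no higher than those of all genes. In HKMTI-1-005, WT and Scr cells the medians were -0.13, -0.15 and -0.04.

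MYC, the activator named above, was 9.97, 10.59 and 11.04 in ATRA cells, against 11.96, 12.28 and 11.41 in untreated cells, and fell by 1.35 on the log2 scale (adjusted p = 0.00265). Its log2 fold change with ATRA was -1.35 in GSK343 cells (adjusted p = 0.00353) and -0.72 in HKMTI-1-005 cells (0.26), and -0.28 in WT, -0.21 in Scr, -0.43 in shEZH2#1 and -0.54 in shEZH2#2 cells, none of these 4 called. The MYC difference and the median of the factors were below 0 in all 7 backgrounds, and the part of MYC in the changes of the factors was not tested. The 6 proliferation markers MKI67, TOP2A, CCNB1, PCNA, MCM2 and CDK1 gave no call with ATRA alone. Their mean level was 10.1 to 10.2 on the ATRA arrays and 9.97 to 10.1 on the untreated arrays.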

How the data were processed

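The data are 42 Affymetrix arrays of HL-60 RNA, in 14 groups of 3. Per the study's methods and the labels, the authors normalized the arrays in Partek by GC-RMA and then removed batch and date effects in the same software. The values the authors deposited are taken as log2 levels, a scale inferred from their range. No source used here gives the batches or the software versions, and a batch correction made before the test can make replicates look closer or further apart than they were. Array signals carry no read depth, so the number of arrays limits the precision.

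Of 33297 probe sets, 19460 had 1 gene symbol, 1754 several and 12083 none in the platform annotation. Each of 18417 genes was read from its probe set of highest mean. One model with a mean for each of the 14 groups was fitted in limma 3.58.1 (R 4.3.3; lmFit and eBayes, 28 residual degrees of freedom), and 22 comparisons were tested with Benjamini-Hochberg adjustment over all genes. Calls followed the thresholds of the methods, which are an adjusted p up to 0.05, a 1.3-fold change and a mean in the top 40%. A log2 fold change is the first-named group minus the second, and intervals are at the 95% level. All factors may be named. Values on every array were given for the 10 with the largest mean change with ATRA over the 7 backgrounds, and for the 2 largest called in each other comparison, with further genes named after their values were seen. The members, gene lists and tests were chosen with earlier results of these data known. The fit was tested on simulated data. The alternatives were the scaling, the filter, the fold threshold, the probe set rule, the variance model, the samples in the fit, a replicate block, an unpaired t-test (named in the study's general statistics section, not for the arrays) and leaving out arrays.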

Additional observations from a re-analysis of the deposited data

Results flagged for a closer look

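WDR12 stood out because its arrays moved in opposite directions in different backgrounds. In Scr cells its log2 fold change with ATRA was 0.16, with all 3 Scr+ATRA arrays above all 3 Scr arrays. Such a separation was seen in Scr cells for 8.52% of all genes and for 1 of the 40 factors. Scr replicates 1 and 2 and Scr+ATRA replicate 3 are among the 6 arrays of high median. In cells without inhibitor and in GSK343, WT, shEZH2#1 and shEZH2#2 cells all 3 ATRA arrays lay below all 3 arrays without ATRA. The fold change in Scr cells did not pass the test itself, and this contrast of one background with the 5 others was not tested as a whole. The difference between the hairpins and Scr was tested, and did not pass in limma (-0.63, adjusted p = 0.329).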

How the results depend on the processing

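Each number here is the count of factors called by limma, unless a test is named. Apart from the t-test, the alternatives were not counted over all genes. With ATRA alone the count of 17 lay between 6 and 21 as single arrays were left out, and was 0 with an unpaired t-test, the only other alternative of 11 that moved it by over 1.5 times. In GSK343 cells (19) it lay between 4 and 30, and was 12 with each array centred on its median, 6 with only the groups compared in the fit and 0 with the t-test. In shEZH2#1 cells (1) it lay between 0 and 3, and was 3 with 1 fit per experiment or quantile normalization, 4 with the array median as a covariate, 2 with only the groups compared, no fold threshold or without the 6 arrays of high median, and 0 with the t-test. In shEZH2#2 cells (8) it lay between 0 and 10, and was 14 with the covariate, 2 with centring, 1 with only the groups compared and 0 with the t-test. In HKMTI-1-005 cells (0) it was 1 with the covariate, and in Scr cells it lay between 0 and 2 as arrays were left out.

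For HKMTI-1-005 with ATRA (1) the count lay between 0 and 3, and was 2 with the covariate and 0 with only the groups compared, 1 fit per experiment, quantile normalization, centring, the mean of probe sets, the trended variance model and the t-test. For knockdown against Scr it lay between 0 and 4. With ATRA (1) it lay between 0 and 3, and was 4 with the covariate, 3 without the 6 arrays, 2 with quantile normalization, and 0 with centring, only the groups compared and the t-test. For knockdown against WT with ATRA it lay between 0 and 1, and was 4 with the covariate, 2 without the 6 arrays and 1 with quantile normalization. For Scr against WT (3) it lay between 0 and 12, and was 6 with centring, and 0 with the covariate, only the groups compared, 1 fit per experiment or the t-test. The differences of the ATRA effect lay between 0 and 2 for Scr minus WT and between 0 and 1 for knockdown minus Scr. The causes were not tested.

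With the replicate number as a block the counts were 18 with ATRA alone, 18 in GSK343 cells, 1 in shEZH2#1 cells, 7 in shEZH2#2 cells, 0 for HKMTI-1-005 with ATRA, 1 for knockdown against Scr with ATRA and 2 for Scr against WT. No source states whether arrays of the same number share more than that number. Their deviations had a mean correlation of -9.1e-05 over 45 pairs of the inhibitor experiment and -0.025 over 84 pairs of the knockdown experiment, and 8 of 18 and 6 of 24 arrays correlated best with their own number. The values were already corrected for batch and date, so these correlations cannot show whether such arrays shared a batch or date.

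Of the medians over the factors for ATRA in the 7 backgrounds, the only ones for which alternatives were run, that in Scr cells alone changed sign, and lay between -0.15 and 0.05 as arrays were left out. The t-test was not run for the differences of the ATRA effect, and 1 fit per experiment cannot give the difference between experiments.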

Other observations

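Of the factors without a probe set of their own, NOP56 (a core protein of the C/D snoRNPs) shares its probe set with the small nucleolar RNA SNORD56. That probe set had log2 fold changes with ATRA of -0.54 without inhibitor, -0.59 in GSK343 cells and -0.11 in HKMTI-1-005 cells. The probe set that PPAN, a large subunit factor, shares with P2RY11 had 0.08, -0.07 and -0.17 in the same backgrounds, and -0.46 in shEZH2#2 cells. Neither value can be given to a single gene.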
